A study of Mus musculus with 48 samples.

Results

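The PIM and MNK kinases were followed through adipogenesis of 3T3-L1 cells with 7 probes of 5 genes, out of 24613 probes under 18991 gene symbols. The members were all probes listed under PIM1, PIM2, PIM3, MKNK1 (MNK1) or MKNK2 (MNK2), whatever their values. PIM1, PIM3 and MKNK1 had a single probe each, and PIM2 and MKNK2 had 2 each. 3T3-L1 is a mouse fibroblast line that turns into fat cells under a hormone cocktail. All cells were transfected with 50 nM siRNA before differentiation, either a pool against PPARγ (PPARγ KD) or a non-targeting pool (control siRNA). From day −2, when the cells were confluent, both groups were kept for 48 h in dexamethasone at 0.25 µM together with IBMX at 0.5 mM. From day 0 they received 5 µg/ml insulin with 1 µM rosiglitazone, a PPARγ agonist, for which the study's methods also give 48 h. RNA was taken on day −2 and daily from day 0 to day 6 in 3 biological replicates of each siRNA, which made 48 arrays, 24 per siRNA. Because every culture received the same inducers, no untreated time course stands beside these days, and rosiglitazone was given under both siRNAs.

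PIM kinases are serine/threonine kinases that need no activating phosphorylation, so that their activity follows their transcript and protein levels, and cytokines induce them through JAK and STAT proteins. They phosphorylate regulators of survival, cell cycle and translation. The MNK kinases dock on the scaffold eIF4G and phosphorylate the cap-binding protein eIF4E after activation by MAP kinases. MNK1 responds strongly to these inputs, whereas MNK2 has a high basal activity.

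Sequences were available for the DNA around Pim3 and for the start sites of all 5 genes. The study cloned a region adjacent to Pim3 into a reporter and changed an element in it that resembles the PPARγ:RXR motif, so both oligonucleotides are shown, since Pim3 is the member whose siRNA effect passed on most days. In the wild-type oligonucleotide the capitals mark bases 17 to 29, which match the direct repeat AGGTCANAGGTCA at 9 of its 12 defined bases. In the mutant the capitals mark the changed bases, G18T and A24T, counted from 1 at the 5′ end, and 7 of the 12 bases match.
Pim3 wild type: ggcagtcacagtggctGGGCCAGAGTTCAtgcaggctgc
Pim3 mutant: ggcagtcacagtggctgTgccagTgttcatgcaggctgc

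RefSeq start-site windows of 300 bases (250 before to 50 after the start, build GRCm38.p6) matched 5 of 5 genes with 7 windows. The windows of Pim3 and Mknk2 are shown because these are the members that PPARγ siRNA lowered. The Pim3 window lies at chr15:88861944-88862243 on the plus strand, and its capitals mark the motifs found in it. These are a single AGGTCA element on the minus strand, read as TGACCT from base −171, and ATTGG, the inverted CCAAT box, at −113 and −73. The Mknk2 window lies at chr10:80676244-80676543 on the minus strand and held none of the 4 motifs searched on both strands, which were AGGTCA alone, its direct repeat AGGTCANAGGTCA, the box ATTGG and the STAT site TTCNNNGAA. The 13-base direct repeat contains AGGTCA, so that these 2 searches overlap.
Pim3 start: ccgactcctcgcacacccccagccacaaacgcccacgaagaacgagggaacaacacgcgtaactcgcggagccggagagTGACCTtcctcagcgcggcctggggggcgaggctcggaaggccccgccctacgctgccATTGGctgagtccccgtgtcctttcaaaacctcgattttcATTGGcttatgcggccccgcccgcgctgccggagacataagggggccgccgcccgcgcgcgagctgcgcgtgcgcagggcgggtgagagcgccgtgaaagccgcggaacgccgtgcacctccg
Mknk2 start: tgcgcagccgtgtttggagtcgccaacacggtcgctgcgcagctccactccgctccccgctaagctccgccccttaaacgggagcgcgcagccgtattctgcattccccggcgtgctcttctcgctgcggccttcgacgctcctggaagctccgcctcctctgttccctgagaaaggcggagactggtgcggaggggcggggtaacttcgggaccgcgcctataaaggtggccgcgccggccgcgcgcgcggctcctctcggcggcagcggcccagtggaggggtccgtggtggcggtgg

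Of 32851 mouse windows of this length, 16.3% held AGGTCA, 0.0396% the full direct repeat, 37.4% ATTGG and 8.3% the STAT site. In the Pim2 window ATTGG stood at −101, and the windows of Mknk1 and Pim1 held none of the 4. The Pim3 window had 69.0% G and C and the Mknk2 window 70.0%, against a median of 52.7% over all windows. The Pim3 oligonucleotide did not lie inside the Pim3 window.

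The siRNA lowered its target. Pairs, here and below, are counted on the log2 levels after scaling of the arrays. The brightest PPARG probe (6130632) was lower under PPARγ KD in 24 of 24 same-day, same-replicate pairs. Its mean log2 difference was −2.34 (SE 0.040, 24 arrays per siRNA, limma Bonferroni adjusted p = 9.48e-34). PPARG probe 1990168 was likewise lower in 24 of 24 pairs. Probe 2680603 was lower in 21 of 24, and had a detection p under 0.01 on 8 control arrays and 0 KD arrays. With a detection p under 0.01 counted as above background, arrays held between 33.4% and 40.4% such probes, and replicate 3 stood apart at 33.4% to 35.4% against 36.8% to 40.4% in replicates 1 and 2. Every fit below therefore takes out the replicate number. Whether the replicates were separate cultures the labels do not say beyond calling them independent biological replicates.

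The 5 kinases differed in whether they could be measured. PIM3, MKNK1 and the MKNK2 probe 5270092 were above background on 48 of 48 arrays, and the other MKNK2 probe (1240020) on 45 of 48, namely 23 under control siRNA and 22 under PPARγ KD. The PIM2 probe 7100577 stood at the edge of detection, above background on 10 control and 14 KD arrays, with deposited signals between 139.6 and 275.2. PIM1 (70.1 to 118.5) and the second PIM2 probe 5720692 (74.8 to 142.6) were not above background on any array. Which transcripts the paired probes of PIM2 and MKNK2 read was not analysed here, and levels are not compared between probes.

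**Figure D1:**
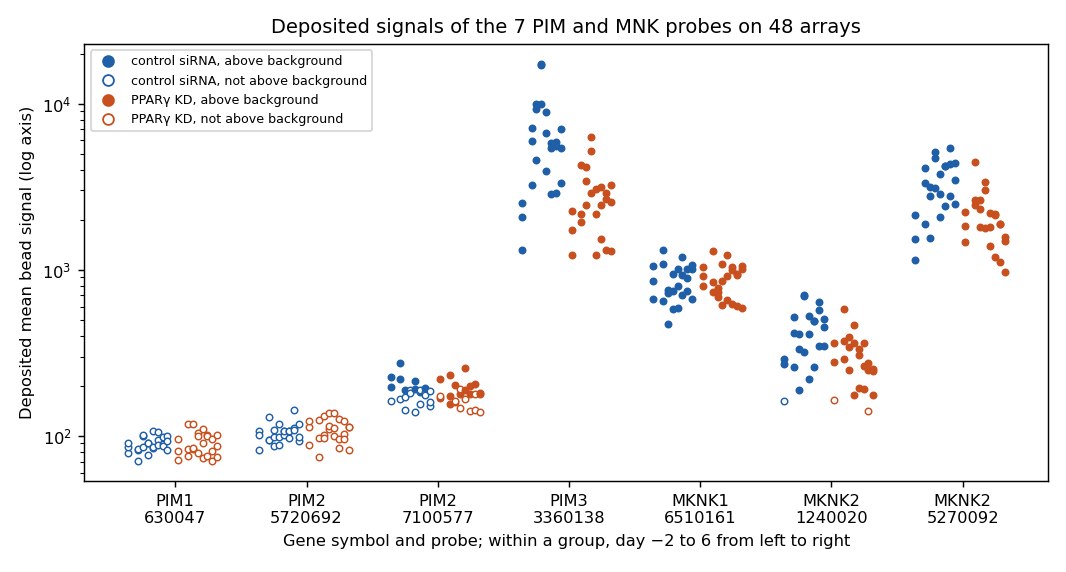
Deposited mean bead signal (log axis) of each PIM and MNK probe on each of 48 arrays, blue for control siRNA and orange for PPARγ KD, with days −2 to 6 running left to right within a group and open points for arrays not above background. PIM1 and PIM2 probe 5720692 were never above background, whereas PIM3, MKNK1 and MKNK2 probe 5270092 always were.

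PPARγ KD lowered PIM3 and MKNK2 and left MKNK1 without a detectable change. Averaged over days −2 to 6, 3 of the 7 probes were lower and 0 were higher with a Bonferroni adjusted p up to 0.05 over all probes, where 6.74% of all 24613 probes were called lower and 6.37% higher. In the same limma fit 0 member probes were higher at an unadjusted p under 0.05 as well, the nearest being PIM2 probe 5720692 (unadjusted p = 0.0526), which was not above background on any array. PIM3 was 2.23-fold lower (log2 difference −1.15, SE 0.028, adjusted p = 1.99e-28) and, after scaling, was lower in 24 of 24 pairs. The 2 MKNK2 probes gave closely similar values, −0.65 (SE 0.030, adjusted p = 3.78e-18, lower in 18 of 24 pairs) for 5270092 and −0.62 (SE 0.060, adjusted p = 4.77e-08, lower in 16 of 24 pairs) for 1240020. Without the replicate term the value of probe 1240020 was the same but did not pass (adjusted p = 0.231). The median of the 7 probes was 0.01 and that of all probes −0.03.

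The replicates agreed on both kinases. The mean PIM3 difference was −1.25, −1.07 and −1.14 in replicates 1, 2 and 3, an SD of 0.091 (n = 3). For MKNK2 probe 5270092 the same values were −0.73, −0.67 and −0.55 (SD 0.091, n = 3), and for probe 1240020 they were −0.70, −0.59 and −0.57 (SD 0.074, n = 3). MKNK1 averaged 0.04 (SE 0.033, adjusted p = 1), with 0.06, −0.05 and 0.11 in the 3 replicates, so that its replicates did not share a direction. In bulk RNA, fewer cells carrying a transcript and less transcript per cell cannot be told apart.

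PIM3 was the first member past the threshold, on day 0. Its deposited signals on day −2, before the inducers, were 2510.0, 2066.5 and 1314.6 under control siRNA and 1723.1, 2248.2 and 1217.9 under PPARγ KD, and the groups overlapped. On day 0, after 48 h of IBMX and dexamethasone but before rosiglitazone, they were 7127.1, 5934.9 and 3215.9 against 2168.2, 4251.9 and 1927.6. Replicate 3 gave the dimmest signal in each of these groups, and after scaling the day 0 groups no longer overlapped.

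The gap then widened. On day 1 the PIM3 signals were 9992.3, 9282.5 and 4587.5 under control siRNA and 3437.0, 4177.3 and 2441.2 under PPARγ KD. On day 2 they reached 17075.6, 17351.8 and 9968.3 against 5217.6, 6332.8 and 2890.0, and on day 3 they were 8916.1, 6621.5 and 3945.4 against 2153.8, 3082.1 and 1220.4. On these 3 days even the deposited signals did not overlap, with every control array above every KD array. Shares of all probes without overlap were computed on the scaled levels only, not on deposited signals.

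From day 4 the control signals were lower than on day 2 and the gap was smaller. Day 4 gave 5416.8, 5760.8 and 2859.9 under control siRNA and 2464.3, 3130.5 and 1523.4 under PPARγ KD, which overlapped before scaling. Day 5 gave 5876.0, 5537.0 and 2894.4 against 2659.4, 2884.7 and 1316.8. Day 6 gave 7063.6, 5436.8 and 3303.8 against 2550.3, 3216.2 and 1299.0. On the scaled log2 levels the 3 KD arrays lay below the 3 control arrays on 7 of the 8 days, day −2 being the exception. On days 0 to 6 in turn, 5.45%, 6.54%, 9.91%, 5.94%, 5.54%, 6.72% and 6.67% of all probes were separated in this direction.

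The PIM3 difference by day ran −0.15 on day −2 (adjusted p = 1), −0.85, −1.32, −1.78 and −1.86 on days 0 to 3, and −1.06, −1.07 and −1.13 on days 4 to 6, each with an SE of 0.078 and n = 3 arrays per siRNA. The 7 differences from day 0 on were past the threshold, with adjusted p from 9.89e-20 to 9.47e-09 (limma). The shares of all probes called lower were 1.37%, 1.49%, 4.18%, 2.29%, 2.13%, 2.68% and 3.09% on days 0 to 6. Without the replicate term the calls on days 0, 4, 5 and 6 were lost at adjusted p of 1, 0.216, 0.176 and 0.0685.

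**Figure D2:**
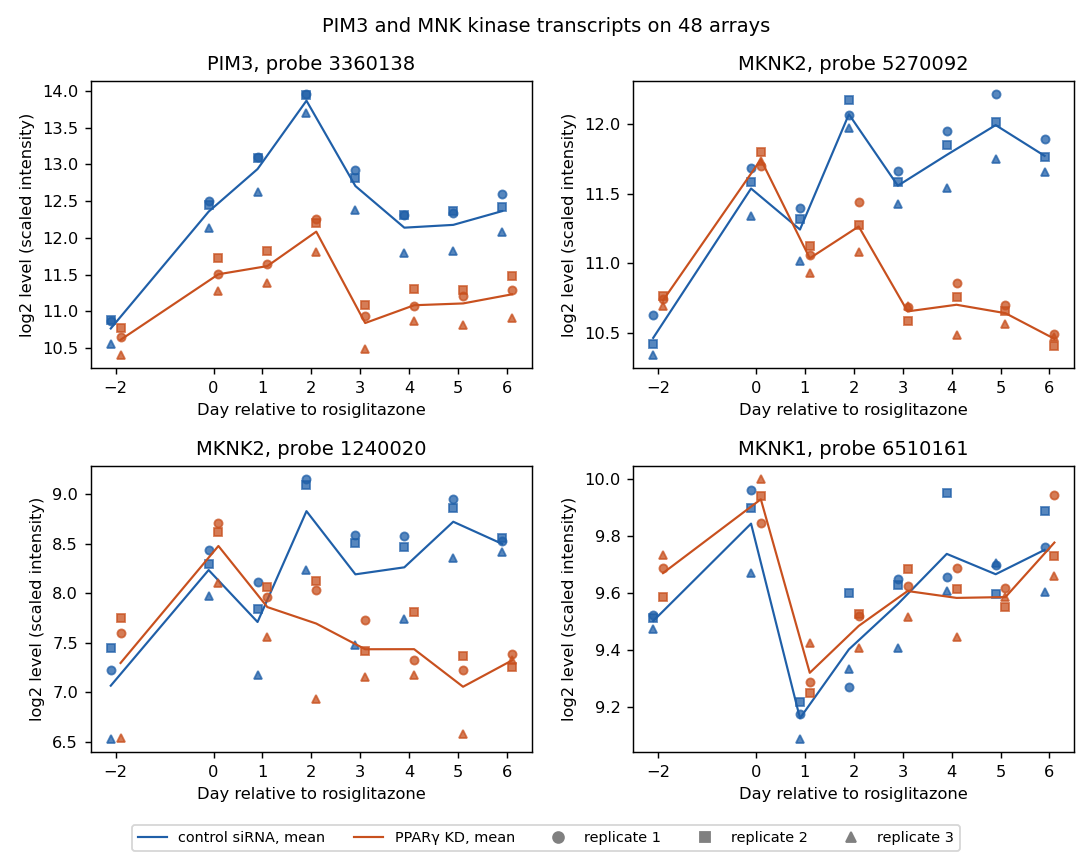
Scaled log2 levels of PIM3, both MKNK2 probes and MKNK1 on each of the 48 arrays by day relative to rosiglitazone, in 4 panels with their own axes. Lines join the means of 3 replicates, and circles, squares and triangles are replicates 1, 2 and 3. All KD arrays lie below all control arrays from day 0 on for PIM3 and from day 2 on for MKNK2 probe 5270092, probe 1240020 overlaps on days 3 and 4, and the MKNK1 groups overlap on most days.

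MKNK2, the MNK with high basal activity, moved later. On day −2 the deposited signals of probe 5270092 were 2147.8, 1524.4 and 1146.8 under control siRNA and 1829.8, 2231.0 and 1463.0 under PPARγ KD. On day 0 they were 4110.6, 3317.0 and 1891.9 against 2458.0, 4467.1 and 2634.2, and on day 1 they were 3150.6, 2785.0 and 1556.3 against 2315.4, 2612.6 and 1804.1. On the scaled log2 levels the KD arrays were above the control arrays without overlap on days −2 and 0, as were 4.23% and 5.03% of all probes. Neither difference passed the threshold (0.27 and 0.21, SE 0.085, adjusted p = 1 for both).

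After scaling, the KD array on day 1 was the lower one in 3 of 3 pairs, although in replicate 3 its deposited signal was the higher one. From day 2 all KD arrays were below all control arrays after scaling. On days 2 to 6 in turn, 9.91%, 5.94%, 5.54%, 6.72% and 6.67% of all probes were separated in this direction. Probe 5270092 read 4672.9, 5147.0 and 3084.8 under control siRNA on day 2 against 3014.8, 3381.3 and 1781.5 under PPARγ KD, and on day 3 it read 3774.4, 2862.3 and 2089.3 against 1819.7, 2197.5 and 1391.0. The groups overlapped before scaling on both days and not after it. On day 4 the signals were 4215.4, 4220.5 and 2418.5 against 2144.4, 2166.0 and 1186.4. They were 5391.9, 4353.8 and 2764.8 against 1895.6, 1894.6 and 1112.3 on day 5, and 4365.5, 3488.2 and 2501.0 against 1498.9, 1569.0 and 974.2 on day 6. On the last 3 days each control array was above each KD array before any scaling, for which no share over all probes was computed.

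The difference in 5270092 was −0.21 on day 1 (adjusted p = 1), then −0.81, −0.90, −1.08, −1.35 and −1.32 on days 2 to 6 (SE 0.085, adjusted p from 1.01e-13 to 4.85e-07). Probe 1240020 followed it more loosely, at 0.23, 0.24 and 0.15 on days −2, 0 and 1, −1.14 on day 2, −0.76 and −0.83 on days 3 and 4, and −1.67 and −1.18 on days 5 and 6 (SE 0.170). Its differences on days 2, 5 and 6 passed (adjusted p = 0.00174, 1.72e-07 and 0.000811), and those on days 3 and 4 did not (adjusted p = 1 and 0.502) although all 3 pairs were lower on each of these days. The calls of 1240020 on days 2 and 6 were lost without replicate 1 (adjusted p = 1 and 0.609) and without replicate 2 (0.254 and 0.665), and that of 5270092 on day 2 without replicate 2 (0.0818). Without the replicate term the calls of 1240020 on days 2, 5 and 6 were lost (adjusted p = 1, 0.473 and 1). Without replicate 3 its differences on days 3 and 4 passed (adjusted p = 0.0232 and 0.0351).

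The dimmer probe overlapped on day 4, at 490.4, 491.1 and 259.3 under control siRNA against 261.7, 360.8 and 190.6 under PPARγ KD. On day 5 probe 1240020 read 640.4, 570.1 and 348.3 under control siRNA and 248.0, 273.5 and 140.4 under PPARγ KD, the last of which was not above background. On day 6 it read 507.8, 451.6 and 346.0 against 246.5, 253.8 and 176.1, again with no overlap of deposited signals, for which no share over all probes was computed. On day 0 it read 518.2, 417.7 and 258.4 against 372.0, 579.0 and 290.0, and the groups overlapped. Over all 24 arrays per siRNA its lowest, median and highest signals were 162, 411.1 and 699.6 under control siRNA and 140.4, 275.7 and 579 under PPARγ KD.

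Whether the early and late effects differed was tested as the mean difference over days 4 to 6 minus that over days 0 to 2. MKNK2 passed with both probes, at −0.98 for 5270092 (SE 0.070, adjusted p = 4.52e-12) and −0.98 for 1240020 (SE 0.139, adjusted p = 0.000579), where 2.82% of all probes were called lower and 0.813% higher. With quantile normalization 701 probes were called lower and 360 higher in this test, against 694 and 200. Each replicate gave the same sign, from −1.02 to −0.95 for 5270092 and from −1.04 to −0.89 for 1240020. Leaving out replicate 1 or 2 ended the call of 1240020 (adjusted p = 0.918 and 0.338). For PIM3 the late effect was the smaller one, by 0.23 (SE 0.064; 0.15, 0.24 and 0.31 in the 3 replicates), which did not pass the Bonferroni threshold (adjusted p = 1) and did pass that of Benjamini-Hochberg (adjusted p = 0.00972).

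On days 4 to 6 alone, fitted on their own 18 arrays, the same 3 probes were lower, against 3.77% of all probes. PIM3 was at −1.09 (SE 0.052, adjusted p = 3.30e-09), and MKNK2 at −1.25 (SE 0.053, adjusted p = 4.84e-10) and −1.22 (SE 0.088, adjusted p = 2.71e-06). MKNK1 was at −0.07 (SE 0.058, adjusted p = 1).

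The time courses show from what level these differences arose. Under control siRNA PIM3 rose from day −2 by 1.59 on day 0, 2.17 on day 1 and 3.10 on day 2, an 8.58-fold change, and stood at 1.94, 1.37, 1.41 and 1.60 above day −2 on days 3 to 6 (SE 0.078, all past the threshold). Under PPARγ KD it also rose, by 0.89, 1.00 and 1.47 on days 0 to 2, and then by 0.47, 0.50 and 0.62 on days 4 to 6, while day 3 at 0.23 did not pass (adjusted p = 1). Of all probes, 4.01%, 4.24%, 6.93%, 2.79%, 3.21%, 3.59% and 4.11% were called higher than on day −2 on days 0 to 6 under control siRNA, and 3.36%, 2.57%, 1.6%, 0.971%, 1.8%, 2% and 2.49% under PPARγ KD. The day 2 peak was the highest day under both siRNAs. After each replicate's mean shift was subtracted, its 3 arrays did not overlap those of the next highest day, day 1. Before that subtraction, days 1 and 2 did overlap under PPARγ KD on the scaled log2 levels (lowest on day 2 at 11.80, highest on day 1 at 11.82). Days 4 and 5 overlapped under both siRNAs, as did days 0 and 6 under control siRNA.

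MKNK2 stayed raised under control siRNA, whereas under PPARγ KD its changes from day −2 did not pass from day 3 on. Under control siRNA probe 5270092 was above day −2 by 1.07, 0.78, 1.61, 1.09, 1.32, 1.53 and 1.31 on days 0 to 6 (SE 0.085, all past the threshold), with days 2 and 5 the highest and overlapping. Under PPARγ KD it rose by 1.01 on day 0 (adjusted p = 7.93e-10) and was 0.53 above day −2 on day 2 (adjusted p = 0.00729). Its changes on days 3 to 6, −0.08, −0.03, −0.09 and −0.28, did not pass, although day 6 passed by Benjamini-Hochberg adjustment (adjusted p = 0.0183). Probe 1240020 rose under control siRNA on 6 of the 7 days, by 1.13 to 1.76, day 1 at 0.64 being the exception (adjusted p = 1). Under PPARγ KD it rose on day 0, by 1.18 (adjusted p = 0.000744), and did not pass on any other day.

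The change from day −2 to day 6 was smaller under PPARγ KD for PIM3 by 0.98 (log2 difference of changes −0.98, SE 0.110, adjusted p = 2.68e-06). For MKNK2 the same difference of changes was −1.59 (SE 0.121, adjusted p = 3.85e-11) with 5270092 and −1.41 (SE 0.240, adjusted p = 0.0231) with 1240020, against 2.09% of all probes called lower. The value for 1240020 did not pass under quantile normalization (adjusted p = 0.0754), without replicate 1 or without replicate 2 (adjusted p = 1 for both).

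MKNK1, the MNK with inducible activity, had deposited signals of 472.6 to 1309.5 under control siRNA (median 825.2) and 587.4 to 1300.2 under PPARγ KD (median 886.2), and the groups overlapped on every day before scaling. After scaling the KD arrays lay above the control arrays on days −2 and 1, as did 4.23% and 6.38% of all probes. Its differences by day lay between −0.15 on day 4 and 0.17 on day −2 (SE 0.092, adjusted p = 1 throughout), and it was lower under PPARγ KD in 9 of 24 pairs. Over time under control siRNA it was lowest on day 1, at −0.34 from day −2, and highest on day 0, at 0.34, and the F test over the 7 changes passed (adjusted p = 0.00280) where 23.5% of all probes did, although no single day did by the Bonferroni threshold (days 0 and 1 did by Benjamini-Hochberg adjustment). This F test did not pass without any 1 of the 3 replicates (adjusted p = 1 each time). Under PPARγ KD it was likewise lowest on day 1 (−0.35) and highest on day 0 (0.26), and the F test did not pass (adjusted p = 0.208, where 16.5% of all probes did).

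PIM2 and PIM1 gave little to compare. The PIM2 probe 7100577 had a median signal of 184.4 under control siRNA and 177.5 under PPARγ KD, with a log2 difference of 0.01 (SE 0.055, adjusted p = 1) and daily differences from −0.25 to 0.24. The never detected probes gave 0.03 for PIM1 (SE 0.042) and 0.11 for PIM2 probe 5720692 (SE 0.053), which describe signals at background.

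Across the 16 condition means (8 days, 2 siRNAs), which share arrays and scaling, the MKNK2 probes ran together with r = 0.97, and each ran with PIM3 at r = 0.79 (5270092) and 0.75 (1240020). MKNK1 had r = −0.30 with PIM3 and 0.14 with MKNK2 probe 5270092. Among 9216 probes of other genes above background on at least 24 arrays, those most like PIM3 were 9530058B02RIK (r = 0.98), POLDIP2 (r = 0.97) and SDHD (r = 0.97), the last a subunit of mitochondrial succinate dehydrogenase. Most like MKNK2 probe 5270092 were COX4I1 (r = 0.95), a subunit of cytochrome c oxidase, FASN (r = 0.94), the fatty acid synthase, and MCAT (r = 0.93), a mitochondrial malonyl transferase. For probe 1240020 they were GM169 (r = 0.93), SLC25A25 (r = 0.93), a mitochondrial carrier, and LOC100047934 (r = 0.92). For MKNK1 they were SIAH1A, 1700023B02RIK and CTSB, each at r = 0.90, and for PIM2 probe 7100577 MGC67181 (r = 0.86), DALRD3 (r = 0.85) and DDX17 (r = 0.85).

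The partners of MNK showed smaller differences than MKNK2 itself. Of 18 probes of the eIF4F complex and cap binding, 4 were lower and 0 higher over days −2 to 6 (median −0.07), beside 6.74% and 6.37% of all probes. At an unadjusted p under 0.05, 9 were lower and 2 higher, beside 21% and 17.8% of all probes. The 4 were EIF4E3 with 1 of its 2 probes (−0.32, adjusted p = 3.06e-05), a cap-binding relative of eIF4E, EIF4E2 with both of its probes (−0.21 and −0.21), and EIF4EBP1 with 1 of its 2 probes (−0.24, adjusted p = 1.15e-06), the inhibitor that holds eIF4E. EIF4E, the MNK substrate, was at 0.05 (SE 0.047, adjusted p = 1), with a probe above background on only 16 control and 16 KD arrays. The docking scaffold EIF4G1 was at −0.07 (SE 0.041, adjusted p = 1). EIF4EBP1 was at −0.56 on days 4 to 6 (adjusted p = 3.92e-05) and was the only probe of this list called there, beside 3.77% of all probes called lower.

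Among the genes of the MAP kinase input to MNK, DUSP4, a phosphatase of MAP kinases, was called lower with 1 of its 2 probes (adjusted p = 1.79e-25), which was above background on 19 control and 3 KD arrays, so that no size is given. On days 4 to 6, where 3.77% of all probes were called lower, DUSP4 was called lower too. The related phosphatases DUSP6 (−0.77) and DUSP1 (−0.61), named after their values were seen, were called lower there as well. Over days −2 to 6 these DUSP6 and DUSP1 probes were at −0.17 and −0.02 and did not pass. The second probes of DUSP4 and DUSP6 were above background on 0 arrays and did not pass (adjusted p = 1 for both).

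The JAK-STAT genes, through which cytokines induce PIM transcripts, had 4 of 28 probes lower and 7 higher (median 0.10), beside 6.74% and 6.37% of all probes. At an unadjusted p under 0.05, 6 were lower and 14 higher, beside 21% and 17.8% of all probes. IL6ST, the shared receptor chain of the interleukin-6 family, was at 0.79 (SE 0.075, adjusted p = 2.25e-08) and OSMR, the oncostatin M receptor, at 0.53 (SE 0.044, adjusted p = 4.89e-10). STAT5A, a transcription factor of cytokine signalling, was at −0.57 (SE 0.041, adjusted p = 6.00e-12). The prolactin receptor PRLR was called lower (adjusted p = 6.44e-08) but was above background on 1 control array and 0 KD arrays, so that no size is given.

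Of 26 probes of PIM substrates and partners, 3 were lower and 2 higher (median −0.04). With so few calls these shares are not set apart from the 6.74% and 6.37% over all probes. At an unadjusted p under 0.05, 7 were lower and 4 higher, beside 21% and 17.8% of all probes. CDKN1A, the cell cycle inhibitor p21, was lower with both probes (−0.30 and −0.23), and MYC, whose protein PIM kinases stabilise, was called lower with 1 of its 2 probes (adjusted p = 2.22e-06), which was above background on 10 control and 6 KD arrays only. CDC25C, a phosphatase that drives entry into mitosis, was higher with 2 of its 3 probes (0.55 and 0.41). BAD, the death promoter that PIM kinases inactivate, was at 0.11 (adjusted p = 1). Of 20 probes of the mTOR and S6 kinase branch, 1 of 2 for TSC2, which restrains mTOR, was higher (0.31, adjusted p = 0.00720), while its second probe, above background on 24 of 24 arrays of each siRNA, was at 0.11 (adjusted p = 1). Of 3 probes of the S6 kinase RPS6KB1, 1 was lower (−0.29, adjusted p = 0.0377), and the other 18 of the list did not pass (list median −0.03). In this list 3 probes were lower and 5 higher at an unadjusted p under 0.05, beside the same 21% and 17.8% of all probes.

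**Figure D3:**
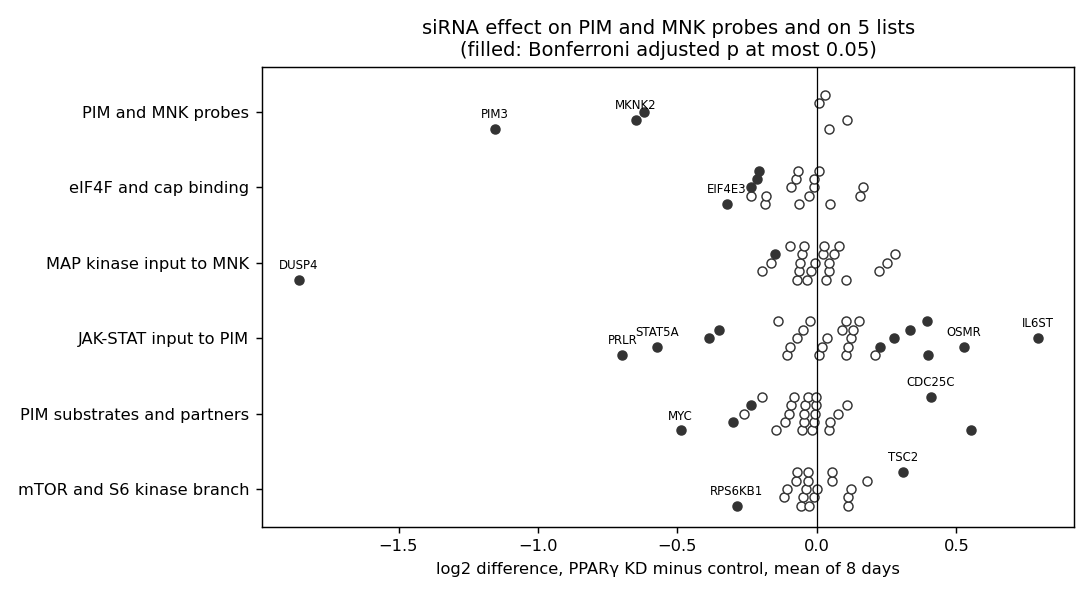
Log2 difference between PPARγ KD and control siRNA averaged over days −2 to 6, with 1 point per probe for the PIM and MNK probes and 5 pathway lists, filled where the adjusted p (Bonferroni) did not exceed 0.05; vertical scatter only separates points. PIM3 at −1.15 is the lowest of the member points, and the DUSP4, PRLR and MYC points rest on KD arrays that were mostly not above background.

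Cell identity moved with the siRNA beside these results. Of 9 adipocyte marker probes 8 were lower over days −2 to 6 (median −1.72), among them ADIPOQ (−3.74, above background on 21 control and 15 KD arrays), the adipokine adiponectin, and CFD (−3.05, above background on 20 and 12), the protease adipsin. Their summed scaled intensities on day −2 were 10527 to 12223 under control siRNA and 4585 to 5178 under PPARγ KD, and on day 6 they were 130082 to 140489 against 30404 to 32981. Over days −2 to 6, 6.74% of all probes were called lower and 6.37% higher. Over days 4 to 6, 380 of the 24613 probes were called higher. Of 12 preadipocyte and fibroblast marker probes 7 were higher over days −2 to 6 (median 0.36) and 1 over days 4 to 6. Their sums on day −2 were 105338 to 110202 under control siRNA and 94991 to 101807 under PPARγ KD, they overlapped on days 3 and 4, and on day 6 they were 103215 to 111817 under control siRNA and 120333 to 123606 under PPARγ KD. The part of these shifts in the PIM3 and MKNK2 differences was not tested. As for the fibroblast label, both COL3A1 probes were above background on 24 of 24 arrays of each siRNA.

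Markers of other cell types stayed near background. Of 7 macrophage genes 5 (PTPRC, EMR1, CSF1R, ITGAM and CD68) were above background on 0 of 48 arrays, and 1 of 13 probes, for LYZS, was called (0.32, adjusted p = 0.0134). The summed macrophage intensities ran from 411.5 to 988.5 under control siRNA and from 445.7 to 906.1 under PPARγ KD. All 6 lymphocyte and 5 endothelial genes found were above background on 0 arrays, 4 of 5 skeletal muscle genes likewise, and 0 of these probes were called (limma, Bonferroni). At an unadjusted p under 0.05, 2, 1 and 2 probes of these lists were lower and 0 higher, beside 21% and 17.8% of all probes.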

How the data were processed

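Gene expression was measured on Illumina MouseRef-8 BeadChips, 48 arrays in all. The authors deposited BeadStudio 3.3.7 output without normalization, which gives a probe's mean bead signal as a linear intensity, a detection fraction (the complement of a p-value), the count of beads and the SD between beads. Another 192 columns, holding a minimum and maximum signal, a number of arrays and an SD between arrays, were not used. The normalization and batch removal named in the study's methods are not in these values. The array values carry no genome coordinates.

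The signals went through limma 3.58.1 (R 4.3.3), with normexp correction from detection p-values and an offset of 16. Arrays were then brought to the mean array by the median ratio of probes from the 50th to the 90th percentile whose relative rank moved by under 0.05. On the log2 scale, each siRNA and day had its own mean, replicate number entered as a block, and days 4 to 6 were also fitted alone. The threshold was an adjusted p of 0.05 (Bonferroni, 24613 probes). The alternatives were quantile normalization, no background correction, an offset of 50, a filter on dim probes, no block, leaving out each replicate, and Benjamini-Hochberg adjustment.

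The replicate numbers come from the labels. Deviations of same-numbered arrays from their condition means correlated at 0.544 to 0.914 in all 24 pairs, over the 10567 probes above background on at least 3 arrays. Different-numbered pairs ranged from −0.889 to 0.854. On every day control replicate 1 correlated more with KD replicate 2 than with KD replicate 1 (0.794 against 0.544 on day 0). These pairwise values therefore do not tell replicates 1 and 2 apart. Against the mean of all other arrays of each number, 48 of 48 arrays correlated best with their own number. This count does not test the numbers. The means of the other numbers hold arrays of the same condition, whose deviations offset the array's own by construction, and the own-number mean holds none.

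The members, gene lists and tests were chosen with earlier results of these data known, and the study took Pim3 and Mnk2 into its siRNA screen partly from these arrays, so that their direction is not independent evidence. Named are all members, PPARG, up to 4 called genes of each list by size of difference, members a sentence on a PIM or MNK gene needs, and the 3 probes most like each member probe. Tested on simulated data with 200 of 24613 probes changed by 1 on the log2 scale, 200 were called in the average of days −2 to 6, 199 in that of days 4 to 6, 198 in late minus early and 183 on day 2, with 0 false calls. The simulated noise was independent and normal with each probe's fitted spread, and each replicate had a shift shared by all probes. Changed probes were drawn from those above background on at least 3 arrays, and background correction and scaling were not simulated. The recovery counts therefore do not cover replicate shifts that differ between probes. Precision is limited by signal over background and by the 3 arrays per group. Promoter windows are from RefSeq, and the Pim3 oligonucleotides from the study's supplementary material. Some genes of the MAP kinase list, and its counts, are not reported here.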

Additional observations from a re-analysis of the deposited data

Results flagged for a closer look

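The siRNA effect on MKNK2 differed between early and late days, in a test where 2.82% of all probes were called lower. The effect over days 4 to 6 minus that over days 0 to 2 was −0.98 with probe 5270092 and −0.98 with probe 1240020 (limma Bonferroni adjusted p = 4.52e-12 and 0.000579), and each of the 3 replicates showed this sign with both probes.

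The change from day −2 to day 6 differed between the siRNAs for 3 member probes, where 2.09% of all probes were called lower. The calls of PIM3 and of probe 1240020 were lost without the replicate term. That of 1240020 was also lost under quantile normalization and on leaving out replicate 1 or replicate 2. Under PPARγ KD minus control siRNA it was −1.59 for MKNK2 probe 5270092, −1.41 for MKNK2 probe 1240020 and −0.98 for PIM3 (adjusted p = 3.85e-11, 0.0231 and 2.68e-06).

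Late and early effects also differed for named genes of the pathway lists, by −1.16 for OSMR (adjusted p = 2.10e-09), −0.80 for DUSP4 (adjusted p = 0.00335), −0.58 for EIF4EBP1 (adjusted p = 2.62e-07), 0.67 for STAT5A (adjusted p = 0.000523) and 0.36 for CDKN1A probe 6400706 (adjusted p = 0.0355). DUSP6 (−1.20, adjusted p = 7.15e-12) and DUSP1 (−1.02, adjusted p = 2.17e-11) passed too, but were named after their values were seen and were not called over days −2 to 6. List genes outside the named ones are not listed, among them JAK2, which passed with probe 6100692 (limma adjusted p = 0.0020). Of all probes, 2.82% were called lower and 0.813% higher in this test. DUSP4 was above background on 3 of 24 KD arrays, so that its value is not a measured size. No group held the 4 or more arrays that a test for single outlying samples needs.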

How the results depend on the processing

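Values are log2 differences or limma adjusted p-values. The lower calls of PIM3 and of MKNK2 probe 5270092 over days −2 to 6 and over days 4 to 6 held under all 9 alternatives, within −1.20 to −1.09 and −1.13 to −1.02 for PIM3 and −0.69 to −0.59 and −1.31 to −1.16 for MKNK2. The replicate block decided several calls. Without it, MKNK2 probe 1240020 was −0.62 over days −2 to 6 (adjusted p = 0.231) and −0.98 for late minus early (adjusted p = 1), its changes over time under control siRNA and under PPARγ KD both had limma adjusted p = 1, the day −2 to 6 change between siRNAs was −1.41 for this probe and −0.98 for PIM3 (adjusted p = 1 for both), and the MKNK1 change over time under control siRNA had limma adjusted p = 0.0719. Without it 1769 probes were called over days −2 to 6, against 3227, 568 against 1307 over days 4 to 6 and 426 against 894 for late minus early.

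Leaving out 1 replicate at a time gave 1759 to 2635, 560 to 895 and 339 to 715 such calls. For MKNK2 probe 1240020 it moved late minus early between −1.04 and −0.95, the day −2 to 6 change between siRNAs between −1.57 and −1.31, and the adjusted p over time under PPARγ KD between 0.00163 and 1 (limma; not passing without replicate 1 at adjusted p = 1 or without replicate 2 at adjusted p = 0.552). The MKNK1 adjusted p over time under control siRNA was 1 without any of the replicates 1, 2 or 3. In limma fits, quantile normalization gave −1.39 for the day −2 to 6 change of probe 1240020 (adjusted p = 0.0754) and brought MKNK1 over time under PPARγ KD past the threshold (adjusted p = 0.0250), as did the filter on dim probes (adjusted p = 0.0418). Quantile normalization also moved the median of all probes on day 2 from −0.12 to −0.0015, with PIM3 at −1.73 there. With limma, Benjamini-Hochberg adjustment called 7605, 5125 and 2939 probes in the 3 comparisons, and passed MKNK1 over time under PPARγ KD (adjusted p = 4.57e-05), PIM2 probe 7100577 over time under control siRNA (adjusted p = 0.00344) PIM3 late minus early (0.23, adjusted p = 0.00972), and the MKNK2 probe 1240020 effects on days 3 and 4 (adjusted p = 0.00171 and 0.000646).

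Only values near 0 changed sign. PIM2 probe 7100577 over days −2 to 6 was −0.018 without background correction, −0.00034 with an offset of 50, and −0.023 to 0.053 leaving out a replicate. Its single days changed sign at −0.024 on day 4 without background correction and at 0.0024 on day 5 with an offset of 50, and leaving out a replicate gave −0.11 to 0.049 on day −2, −0.034 to 0.33 on day 1, −0.096 to 0.28 on day 3, −0.031 to 0.045 on day 4 and −0.21 to 0.12 on day 5. MKNK1 ranged so from −0.014 to 0.18 on day 0, −0.0081 to 0.16 on day 2 and −0.060 to 0.11 on day 6. None of these values passed. The cause of these changes was not tested, beyond fewer arrays in the fits without a replicate. Signal over background limits PIM1 and PIM2.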
